A study of Mus musculus with 8 samples.

Results

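The genes described here encode the receptors for glutamate, GABA and glycine, the main fast transmitters of the central nervous system. They were taken by name from the array annotation: every gene whose symbol begins like an AMPA, kainate, delta or NMDA receptor subunit (Gria, Grik, Grid, Grin), a metabotropic glutamate receptor (Grm), a GABA-A or GABA-B receptor subunit (Gabr, Gabbr) or a glycine receptor subunit (Glra, Glrb). The rule matched 53 of 35513 gene names, read by 78 probes. One match encodes a binding protein and no subunit, which left 52 subunits. Each was read by the probe with the highest mean intensity.

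The cells were mouse neurospheres, spheres of neural stem and progenitor cells in suspension, derived from EB3, an embryonic stem cell line. Embryoid bodies grown in Noggin, which blocks BMP signals, were dispersed on day 6 and infected with lentivirus (multiplicity of infection about 25). The spheres were then kept in serum-free medium with 20 ng/ml FGF2. All 8 cultures came from this 1 line, all carried a lentiviral vector, and no culture without virus was analysed here. At P2, that is in tertiary neurospheres, the 4 groups were shNr2f1/2 (an shRNA against the orphan nuclear receptors Nr2f1 and Nr2f2), shCont (a control shRNA), miR-17 (overexpression of that microRNA) and miRCont (a control miRNA). At P0, that is in primary neurospheres collected after 6 days, the same 4 groups were measured. Each group was 1 single-colour array, so the difference between 2 groups at 1 passage rests on 1 array each. The 4 conditions gave 4 pairs of P2 and P0 arrays.

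As background, AMPA, kainate and NMDA receptors are ion channels built of 4 subunits that open on binding glutamate, and NMDA receptors also need glycine or D-serine. GABA-A and glycine receptors are chloride channels built of 5 subunits, while metabotropic glutamate and GABA-B receptors act through G proteins. Neurons make most of these subunits, but neural progenitors, astrocytes and oligodendrocyte precursors each carry some, and GABA depolarizes immature neural cells and slows their division.

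Levels below are log2 intensities relative to the 75th percentile of their array, so 0 is the array's upper quartile and a difference of 1 is a doubling. They rank arrays for 1 gene, not genes against each other. Of the 52 subunits, the probes of 45 were well above background on 2 or more arrays and those of 31 on all 8. Gabra6, Gabrq, Gabrr3, Glra3 and Glra4 were not well above background on any array, and Gabre and Grm6 on only 1. All 4 AMPA, 5 kainate, 7 NMDA and both GABA-B subunits were retained, with 3 of 5 glycine receptor subunits. Gabbr2 was retained through its P2 arrays alone, since it was dim on all 4 P0 arrays.

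**Figure D1:**
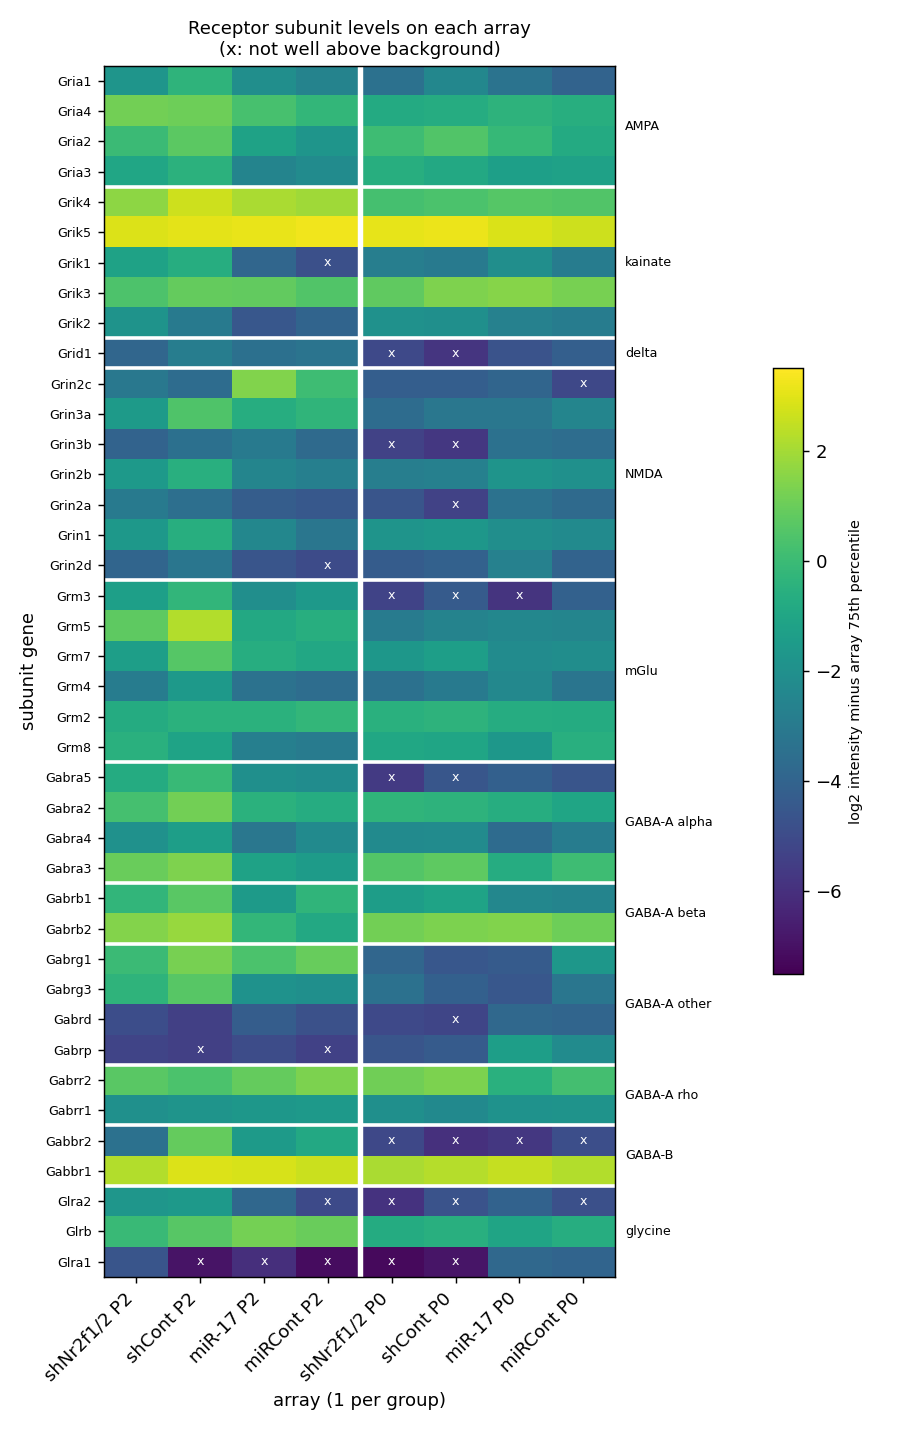
Log2 level (colour, relative to the 75th percentile of each array) of 40 of the 45 retained subunits (rows, by receptor class) on the 8 arrays (columns, 1 per group). Crosses mark values not well above background. Grik5 and Gabbr1 lie above 2 on every array, and Gabbr2 is dim on all 4 P0 arrays.

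Across the whole array, 57.9% to 67.9% of spots lay well above background, and no spot was saturated. The knockdown array was lower than its control by 55.6% and 56.9% on the 2 Nr2f1 probes at P2, and by 42.2% and 42.7% at P0. Nr2f2 was 46.4% lower at P2 and 29.6% lower at P0. The labelled cell type was checked on markers. All 10 neural stem and radial glia genes and all 14 neuron genes were well above background on all 8 arrays, and so were 6 of 10 astrocyte and 9 of 10 oligodendrocyte lineage genes. Summed over a list on the linear scale and returned to log2, the astrocyte genes lay at 6.02 to 8.76 on the P2 arrays and at 3.55 to 4.25 on the P0 arrays, and the oligodendrocyte lineage genes at 3.89 to 8.76 on the P2 arrays and at 3.06 to 3.68 on the P0 arrays. The astrocyte genes S100b and Ntsr2 and the oligodendrocyte gene Gpr17 were above background on only 4 arrays. The neuron genes summed to 6.70 to 7.59 on the P2 arrays and 7.40 to 8.41 on the P0 arrays. Genes of other cell types were detected as well. Well above background on all 8 arrays were 5 of 7 pluripotent stem cell genes and 4 of 7 retained endothelial, blood and microglia genes. The pluripotent stem cell genes summed to 2.74 to 2.95 on the P2 arrays and 3.54 to 4.83 on the P0 arrays. In RNA from whole cultures, fewer cells of a type and less RNA per cell cannot be told apart. All 8 arrays lay on 1 slide. The 4 slide rows each held 1 treatment arm and passage. Passage and slide row therefore cannot be told apart, and neither can slide row and the knockdown or miR-17 against its control. Whether these were independent cultures is not stated, so p-values measure the spread between these samples, which may be technical. In the main fit that spread is how far the passage change differed between the 4 conditions. It therefore also holds any real difference between conditions in that change.

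The first comparison asked which subunits differed between tertiary and primary neurospheres across the 4 conditions. Of the 45 subunits 6 were called, at a Benjamini-Hochberg adjusted p under 0.05 in limma, and all 6 were higher at P2: the metabotropic receptor Grm3, the GABA-A subunits Gabrg1 and Gabra5, the NMDA subunit Grin3a, the kainate subunit Grik4 and the AMPA subunit Gria1. None was called lower. Over all 27120 genes tested, 4.97% were called, 2.61% higher and 2.36% lower. An unadjusted p under 0.05 was reached by 22 of 45 subunits (48.9%) and by 40.1% of all genes. The 4 P2 values lay wholly above the 4 P0 values for 13 subunits (28.9%, against 9.3% of all genes) and wholly below for 1 (2.22%, against 15.2%). In 21 subunits (46.7%, against 17.4% of all genes) every pair was higher at P2, and in 2 (4.44%, against 32.1%) every pair was lower. The median passage difference was 0.46 over the subunits and -0.21 over all genes. These counts include 2 subunits, Gabbr2 among them, that the filter retained only through P2.

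**Figure D2:**
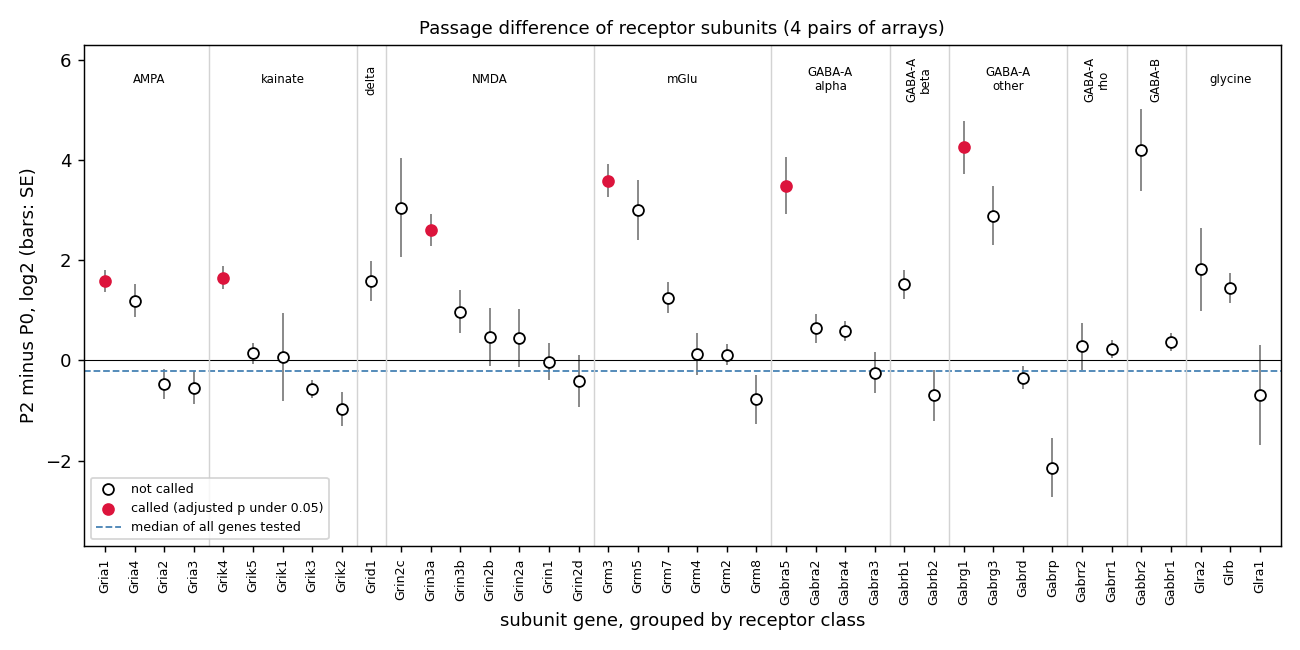
Log2 difference P2 minus P0 (vertical axis) of 40 of the 45 retained subunits (horizontal axis, by receptor class), with the standard error of the limma fit over 4 pairs of arrays. The 6 filled points are the called subunits, all above 1.5, and the dashed line at -0.21 is the median of all genes tested.

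Among AMPA receptor subunits, Gria1 rose at P2 and the other 3 were not called. Gria1, a subunit that carries calcium-permeable and activity-regulated receptors, is read on chromosome 11 (chr11:57143613-57143672, mm9). Its log2 level was -1.78 with shNr2f1/2, -0.35 with shCont, -2.05 with miR-17 and -2.57 with miRCont at P2, against -3.39, -2.43, -3.29 and -3.99 in the same 4 conditions at P0. The 4 pairs each rose (log2 difference 1.59, SE 0.22, adjusted p = 0.0373 in limma), but the conditions were spread so widely that the P2 and P0 ranges overlapped. Gria4, which has rapid kinetics, had P2 values that were all above the P0 values, with a difference of 1.19 (SE 0.33, adjusted p = 0.0744 in limma). Gria2, whose edited form makes the channel impermeable to calcium, differed by -0.47 (SE 0.30, adjusted p = 0.276 in limma), and its other probe by 0.87. Gria3 differed by -0.54 (SE 0.33, adjusted p = 0.262 in limma).

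Kainate receptors are built from Grik1, Grik2 and Grik3, which form channels by themselves, and Grik4 and Grik5, high-affinity subunits that join them. Grik4, read at chr9:42328570-42328629, was at 1.62 with shNr2f1/2, 2.65 with shCont, 2.12 with miR-17 and 1.91 with miRCont at P2, against 0.25, 0.39, 0.58 and 0.51 in the same 4 conditions at P0. The 4 P2 values lay between 1.62 and 2.65, all above every P0 value (log2 difference 1.64, SE 0.23, adjusted p = 0.0373 in limma), a 3.13-fold difference. Grik5 was nearly level, at 0.14 (SE 0.21, adjusted p = 0.647 in limma). The 3 channel-forming subunits were not called, with differences of -0.57 (SE 0.18, adjusted p = 0.0865 in limma) for Grik3, lower in all 4 pairs, -0.97 (SE 0.34, adjusted p = 0.105 in limma) for Grik2 and 0.07 (SE 0.87, adjusted p = 0.957 in limma) for Grik1.

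The delta receptor Grid1 resembles glutamate receptors in sequence but acts mainly as an adhesion molecule at synapses. It was at -3.89 with shNr2f1/2, -2.83 with shCont, -3.42 with miR-17 and -3.28 with miRCont at P2, against -5.08, -5.81, -4.70 and -4.17 in the same 4 conditions at P0. All P2 values lay above all P0 values, with 2 of 4 P0 arrays above background, but the difference of 1.58 (SE 0.40, adjusted p = 0.0663 in limma) was not called.

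NMDA receptors combine Grin1, present in every receptor, with glutamate-binding Grin2 or glycine-binding Grin3 subunits. Grin3a, a glycine-binding subunit prominent in the developing brain and read at chr4:49678098-49678157, was at -1.50 with shNr2f1/2, 0.49 with shCont, -0.63 with miR-17 and -0.32 with miRCont at P2, against -3.59, -3.16, -3.12 and -2.50 in the same 4 conditions at P0. All P2 values lay above all P0 values, by 6.07-fold (log2 difference 2.60, SE 0.32, adjusted p = 0.0359 in limma). Grin2c, a subunit of cerebellar granule cells and astrocytes, was at -3.08 with shNr2f1/2, -3.63 with shCont, 1.40 with miR-17 and 0.08 with miRCont at P2, against -4.21, -4.21, -3.89 and -5.12 in the same 4 conditions at P0. Its P2 values also lay above all P0 values, and the miR-17 and miRCont arrays stood over 3 log2 units above the shRNA arrays at P2, with an uncalled passage difference of 3.05 (SE 0.98, adjusted p = 0.0899 in limma). Grin1 itself differed by -0.03 (SE 0.36, adjusted p = 0.962 in limma). Grin2b, the subunit typical of embryonic forebrain, was at -1.60 with shNr2f1/2, -0.55 with shCont, -2.50 with miR-17 and -2.77 with miRCont at P2, against -2.79, -2.71, -1.82 and -1.96 in the same 4 conditions at P0, with a difference of 0.46 (SE 0.58, adjusted p = 0.568 in limma). Its shRNA pairs were higher at P2 and its miRNA pairs lower. Differences were 0.44 (SE 0.58, adjusted p = 0.591 in limma) for Grin2a, -0.41 (SE 0.52, adjusted p = 0.573 in limma) for Grin2d and 0.97 (SE 0.44, adjusted p = 0.158 in limma) for Grin3b, the other glycine-binding subunit.

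Metabotropic glutamate receptors fall into group I (which includes Grm5, coupled to phospholipase C), group II (Grm2 and Grm3) and group III (Grm4, Grm6, Grm7 and Grm8), the last 2 groups lowering cyclic AMP. Grm3, the group II receptor that astrocytes also carry, had the lowest adjusted p of all subunits. Read at chr5:9485369-9485428, it was at -1.27 with shNr2f1/2, -0.24 with shCont, -2.08 with miR-17 and -1.61 with miRCont at P2, against -5.27, -4.34, -5.83 and -4.10 in the same 4 conditions at P0. It was well above background on all 4 P2 arrays and on 1 P0 array, that with miRCont. The P2 values lay wholly above the P0 values (log2 difference 3.58, SE 0.33, adjusted p = 0.0299 in limma). The difference was at least 9.94-fold with the dim values raised to the lowest reliable signal of their array where they lay below it. The other group II receptor, Grm2, differed by 0.12 (SE 0.21, adjusted p = 0.695 in limma).

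In group I no receptor was called. Grm5, found on neurons and on young astrocytes, was at 0.76 with shNr2f1/2, 2.24 with shCont, -0.84 with miR-17 and -0.59 with miRCont at P2, against -2.92, -2.58, -2.43 and -2.51 in the same 4 conditions at P0. Every P2 value exceeded every P0 value, by 3.0 (SE 0.60, adjusted p = 0.0542 in limma), and its other probes gave 3.71, with all 4 P0 arrays dim, and 1.06. In group III, Grm7, a presynaptic receptor of low glutamate affinity, was at -1.34 with shNr2f1/2, 0.61 with shCont, -0.63 with miR-17 and -0.91 with miRCont at P2, against -1.67, -1.31, -2.20 and -2.09 in the same 4 conditions at P0, higher at P2 in all 4 pairs by 1.25 (SE 0.31, adjusted p = 0.0655 in limma). Grm4 was at -2.87 with shNr2f1/2, -1.61 with shCont, -3.34 with miR-17 and -3.58 with miRCont at P2, against -3.38, -2.95, -2.37 and -3.21 in the same 4 conditions at P0, a difference of 0.13 (SE 0.42, adjusted p = 0.832 in limma). Grm8 differed by -0.78 (SE 0.49, adjusted p = 0.28 in limma).

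GABA-A receptors usually join 2 alpha, 2 beta and 1 gamma or delta subunit. Gabra5, the alpha subunit of extrasynaptic receptors that carry tonic current in hippocampus, is read at chr7:64663486-64663545. It was at -0.72 with shNr2f1/2, -0.09 with shCont, -2.03 with miR-17 and -2.14 with miRCont at P2, against -5.65, -4.56, -4.11 and -4.61 in the same 4 conditions at P0. All P2 values exceeded all P0 values (log2 difference 3.49, SE 0.56, adjusted p = 0.0428 in limma). The difference was at least 10.2-fold with the 2 dim P0 values raised to the lowest reliable signal of their array where they lay below it. The other alpha subunits were not called. Differences were 0.64 (SE 0.29, adjusted p = 0.161 in limma) for Gabra2 and 0.59 (SE 0.19, adjusted p = 0.0915 in limma) for Gabra4, each higher at P2 in all 4 pairs, and -0.25 (SE 0.41, adjusted p = 0.666 in limma) for Gabra3. Of the beta subunits, Gabrb1, which astrocytes carry beside neurons, was at -0.26 with shNr2f1/2, 0.67 with shCont, -1.51 with miR-17 and -0.31 with miRCont at P2, against -1.36, -1.13, -2.43 and -2.56 in the same 4 conditions at P0. Each of its pairs was higher at P2, by 1.52 (SE 0.29, adjusted p = 0.0518 in limma), though the ranges overlapped. Gabrb2 differed by -0.70 (SE 0.51, adjusted p = 0.339 in limma).

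Gabrg1, a gamma subunit known from glia and a few brain nuclei, had the largest passage difference of the 31 subunits well above background on all 8 arrays. Read at chr5:71143181-71143240, it was at -0.01 with shNr2f1/2, 1.26 with shCont, 0.38 with miR-17 and 0.95 with miRCont at P2, against -3.87, -4.51, -4.36 and -1.68 in the same 4 conditions at P0. It was 19-fold higher at P2 (log2 difference 4.25, SE 0.53, adjusted p = 0.0363 in limma), every P2 value lying above every P0 value, and a second probe, dim on all P0 arrays, gave 3.36. Gabrg3 also had P2 values wholly above P0 values, by 2.89 (SE 0.59, adjusted p = 0.0547 in limma), with 1.24 and 0.42 on its other probes, the last of them dim on 7 of 8 arrays. Gabrp, the pi subunit known from reproductive epithelia, was the 1 subunit with all P2 values below all P0 values, by -2.14 (SE 0.58, adjusted p = 0.072 in limma). It was well above background on 2 of 4 P2 arrays. Gabrd, an extrasynaptic subunit, differed by -0.34 (SE 0.24, adjusted p = 0.321 in limma). Of the rho subunits, known from retina, Gabrr2 was at 0.68 with shNr2f1/2, 0.40 with shCont, 0.89 with miR-17 and 1.31 with miRCont at P2, against 1.12, 1.35, -0.50 and 0.21 in the same 4 conditions at P0, a difference of 0.28 (SE 0.47, adjusted p = 0.67 in limma). Its miRNA pairs were higher at P2 and its shRNA pairs lower, and Gabrr1 differed by 0.23 (SE 0.18, adjusted p = 0.365 in limma).

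GABA-B receptors pair Gabbr1, which binds GABA, with Gabbr2, which brings the pair to the surface and couples it to G proteins. Gabbr1 was well above background everywhere and nearly level, differing by 0.37 (SE 0.19, adjusted p = 0.196 in limma). Gabbr2, read at chr4:46677374-46677433, was at -3.40 with shNr2f1/2, 0.89 with shCont, -1.50 with miR-17 and -0.85 with miRCont at P2, against -5.10, -5.97, -5.71 and -4.88 in the same 4 conditions at P0. It was dim on all 4 P0 arrays and above background on all 4 P2 arrays, so it was at least 13.3-fold higher at P2, but just missed the threshold (measured log2 difference 4.20, SE 0.82, adjusted p = 0.0529 in limma). A neighbouring probe, also dim on all 4 P0 arrays, gave 3.38, whereas a probe that spans an intron, above background on all 8 arrays, gave -0.16. The probes of Gabbr2 thus disagreed, and no transcript form was assigned to them. Among glycine receptor subunits, Glrb, the beta subunit that anchors the receptor at synapses, had all P2 values above all P0 values, by 1.44 (SE 0.30, adjusted p = 0.0557 in limma). Glra2, the embryonic alpha subunit, was at -1.71 with shNr2f1/2, -1.59 with shCont, -3.84 with miR-17 and -5.03 with miRCont at P2, against -5.88, -4.67, -4.06 and -4.83 in the same 4 conditions at P0, above background on 3 P2 arrays and 1 P0 array, with a difference of 1.82 (SE 0.83, adjusted p = 0.163 in limma). Glra1, the adult alpha subunit, was at -4.58 with shNr2f1/2, -6.92 with shCont, -6.0 with miR-17 and -7.12 with miRCont at P2, against -7.24, -6.89, -3.77 and -3.97 in the same 4 conditions at P0. It was above background on 1 P2 array, that with shNr2f1/2, and on the 2 miRNA arrays at P0, with a difference of -0.69 (SE 1.0, adjusted p = 0.627 in limma).

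**Figure D3:**
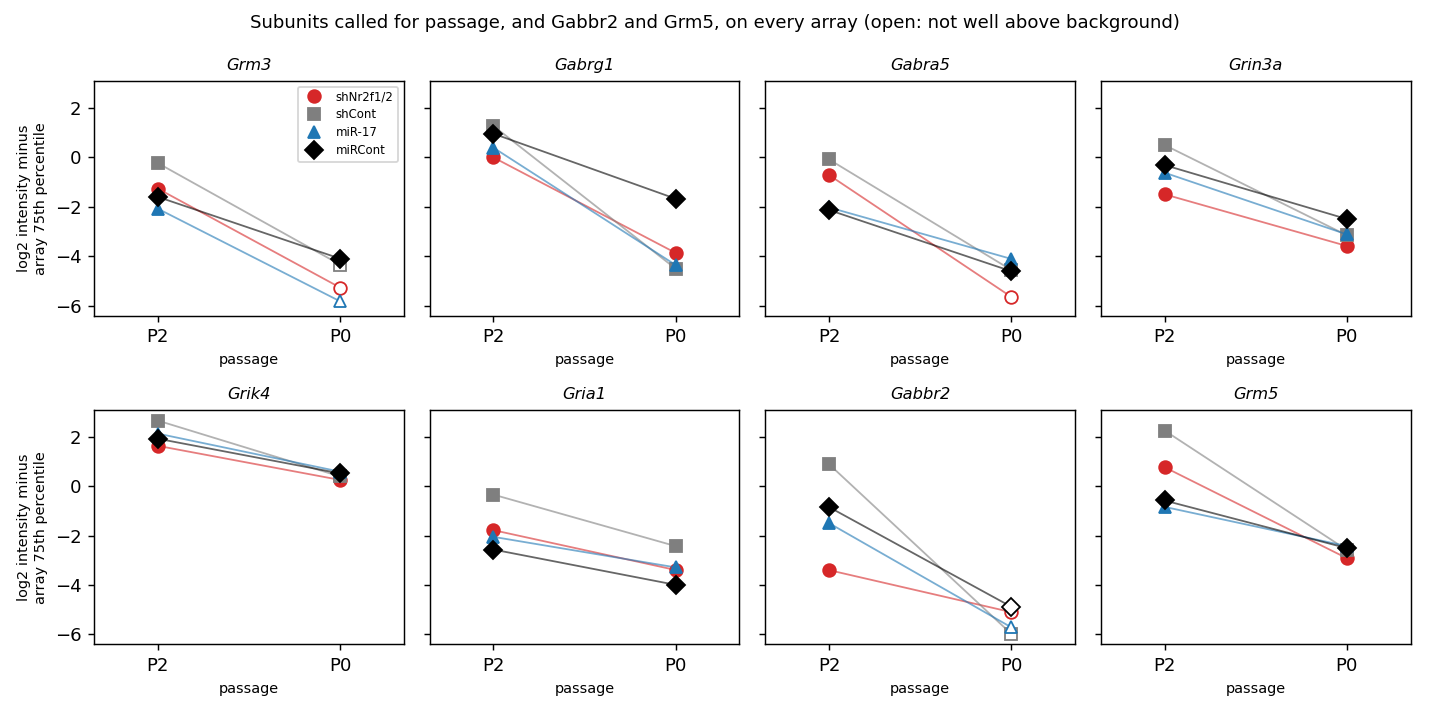
Log2 level (vertical axis) of the 6 called subunits and of Gabbr2 and Grm5 at P2 and P0, 1 line per condition. Open symbols are values not well above background. Gria1 is the called subunit whose passages overlap, between -2.57 and -2.43, and the shNr2f1/2 array is the lowest P2 array for Gabrg1, Grin3a, Grik4 and Gabbr2.

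The 6 calls depended on which pairs were fitted. Leaving out the shCont, the miRCont or the miR-17 pair gave 0 called genes in limma, with 8389, 5796 and 5899 genes at an unadjusted p under 0.05. All 6 subunits kept that unadjusted level, with adjusted p of 0.117 to 0.157, but these fits reuse arrays on which the 6 were called. Without the shNr2f1/2 pair 12 of 45 subunits were called, and 4783 of all 27120 genes. Several marker lists differed between passages as well. Of 10 astrocyte genes 6 were called higher at P2 and none lower (median difference 4.82), and of 10 oligodendrocyte lineage genes 5 were called higher and none lower (median 3.37). Of 14 neuron genes 1 was called, Elavl4, which fell by 2.12 log2 units (adjusted p = 0.0437 in limma), and the list median was -0.74. All 10 cell cycle genes were below 0 (median -2.82), none of them called, and of 7 pluripotent stem cell genes 2 were called lower and 1 higher (median -1.42). The part of these cells in the subunit differences was not tested.

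Promoter sequence is shown for the 4 called subunits that the RefSeq promoter table holds, since they rose together at P2. The table (GRCm38.p6, 250 bases before to 50 after each start) had an entry of 300 bases for 36 of the 52 subunits. Each is written on the strand of its gene, with capitals marking TTGGC (the core site of NFI factors, which act in glial development), the E-box CAGATG, and AGGTCA (the core site of nuclear receptors such as Nr2f1), searched on both strands with no overlap between them. The entries are Gabra5 at chr7:57510010-57510309, Gabrg1 at chr5:70842568-70842867, Grik4 at chr9:42944322-42944621 and Grm3 at chr5:9725303-9725602, all on the minus strand.
Gabra5: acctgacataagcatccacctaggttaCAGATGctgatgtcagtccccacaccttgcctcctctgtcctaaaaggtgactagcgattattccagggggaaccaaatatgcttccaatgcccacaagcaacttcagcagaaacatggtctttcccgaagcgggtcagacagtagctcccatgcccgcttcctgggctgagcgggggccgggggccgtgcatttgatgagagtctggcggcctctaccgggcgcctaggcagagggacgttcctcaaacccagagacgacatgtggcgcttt
Gabrg1: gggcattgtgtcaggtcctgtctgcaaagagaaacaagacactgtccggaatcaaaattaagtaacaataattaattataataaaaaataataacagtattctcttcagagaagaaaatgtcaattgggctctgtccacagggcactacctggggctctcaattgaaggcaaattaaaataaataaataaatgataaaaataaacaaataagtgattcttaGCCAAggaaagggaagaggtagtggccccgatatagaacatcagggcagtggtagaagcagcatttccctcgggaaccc
Grik4: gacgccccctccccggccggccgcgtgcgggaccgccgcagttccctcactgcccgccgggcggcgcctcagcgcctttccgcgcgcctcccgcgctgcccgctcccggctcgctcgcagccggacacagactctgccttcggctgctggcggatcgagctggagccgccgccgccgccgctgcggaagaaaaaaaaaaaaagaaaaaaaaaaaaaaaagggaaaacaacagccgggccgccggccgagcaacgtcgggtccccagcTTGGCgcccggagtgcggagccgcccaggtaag
Grm3: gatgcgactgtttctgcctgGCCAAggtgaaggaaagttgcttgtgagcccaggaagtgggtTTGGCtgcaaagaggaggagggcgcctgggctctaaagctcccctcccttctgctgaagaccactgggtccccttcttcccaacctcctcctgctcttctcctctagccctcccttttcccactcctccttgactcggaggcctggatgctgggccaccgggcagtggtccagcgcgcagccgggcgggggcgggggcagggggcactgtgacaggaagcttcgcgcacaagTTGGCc
TTGGC was found 3 times in the Grm3 window, once each in those of Gabrg1 and Grik4, and not in that of Gabra5, which held 1 CAGATG. The 4 windows held no AGGTCA. In all 32851 promoters of that length, TTGGC was present in 46.7%, CAGATG in 17.2% and AGGTCA in 16.3%. Of the 45 windows of all matched genes, 22 held TTGGC (48.9%) and 3 each held CAGATG and AGGTCA (6.7%). The median GC content was 59.7% in these windows and 52.7% in all. The 4 windows ranged from 38.3% GC for Gabrg1 to 70.0% for Grik4, and none of the 3 motifs was in all 4 windows.

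Genes that work with these receptors were examined as lists. Of 14 NMDA and kainate receptor partners 3 were called higher at P2 and none lower, against 2.61% and 2.36% of all genes. In that list 8 differences were above 0 and 6 below (median 0.17). The 3 were Dlgap1, a scaffold protein of the postsynaptic density, by 3.79 log2 units (adjusted p = 0.0371 in limma), Camk2b, a calcium-dependent kinase subunit, by 1.47 (adjusted p = 0.0375), and Dlg2, a scaffold that binds NMDA receptors, by 1.36 (adjusted p = 0.0372). Of 6 GABA-B receptor partners only Kcnj3, a potassium channel subunit opened by these receptors, was called, higher by 2.63 (adjusted p = 0.0292 in limma). In that list 4 differences were above 0 and 2 below (median 0.40). No gene was called among 17 AMPA receptor partners (median difference -0.18), 8 mGlu receptor partners (-0.34) or 11 GABA-A and glycine receptor partners (0.61), where 9 differences were above 0. The largest were 1.85 for Shisa9 and -1.79 for Cacng3, auxiliary AMPA receptor subunits, -1.68 for Shank2 and 1.17 for Shank3, postsynaptic scaffolds, and 1.07 for Gphn, the gephyrin that anchors glycine and GABA-A receptors.

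Of 12 genes of transmitter synthesis and breakdown 2 were called higher and 1 lower, 7 of the 12 differences were below 0, and the median was -0.28. Abat, which breaks down GABA, rose by 2.18 log2 units (adjusted p = 0.0292 in limma), and Glul, the glutamine synthetase of astrocytes, by 1.21 (adjusted p = 0.0471).

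The second comparison asked how the subunits differed with the Nr2f1/2 knockdown. Over both passages, no gene was called in limma for shNr2f1/2 against shCont (0% of 27120 genes), 3 of 45 subunits reached an unadjusted p under 0.05, as did 1.91% of all genes, and 36 differences were below 0. At P2, as a difference of 2 arrays with no test, 13 subunits were at least 2-fold lower with shNr2f1/2 (9.88% of all genes) and 2 at least 2-fold higher (9% of all genes). The median difference was -0.63 over the subunits and 0.07 over all genes. At P0, 2 subunits, Gabra5 and Glra2, measured at least 2-fold lower (1.22% of all genes), but both were dim on both arrays and are given no fold, and none was higher (4.49%). The difference between passages was itself tested, and no gene was called for the interaction of knockdown and passage (0% of genes), with an unadjusted p under 0.05 in 1 subunit and in 3.95% of all genes. That fit left 1 residual degree of freedom, the difference in passage change between shCont and miRCont. The lack of calls therefore does not show that the effects were alike at both passages.

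The largest difference at P2 was that of Gabbr2, at -3.40 with shNr2f1/2 and 0.89 with shCont, a difference of -4.28. It was seen on its other probes too, by -3.88 and, on the probe spanning an intron, by -1.82. Of the glutamate receptors, Grin3a (-1.99), Grm7 (-1.95), Grm5 (-1.48), Gria1 (-1.44), Grm4 (-1.27), Grid1 (-1.06), Grin2b (-1.05), Grm3 (-1.03) and Grik4 (-1.02) were among those at least 2-fold lower with shNr2f1/2. The GABA-A subunit Gabrg1 (-1.27) was another. These values hold for the probes read. The other probes of Grm4 and Gabrg1, above background on all 4 P2 arrays, gave 0.12 and -0.65. The other probes of Grm5 (-1.68 and -1.50) and Grin2b (-1.19) were also at least 2-fold lower. Glra1 and Grik2 were higher, and the other Grik2 probe gave 0.66. Grik2 was at -1.85 with shNr2f1/2, -3.02 with shCont, -4.50 with miR-17 and -3.95 with miRCont at P2, against -1.93, -2.0, -2.65 and -2.87 in the same 4 conditions at P0, a knockdown difference of 1.17 at P2. Glra1 was dim with shCont and at least 2.04-fold higher, on a probe that spans an intron. Its other probe, dim on every P2 array, differed by -0.15.

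The shCont array, shared by all knockdown differences at P2, held the highest P2 value for 31 of 45 subunits (against 15.9% of all genes), while miRCont held the lowest for 20 and shNr2f1/2 for 13. The median level of the 45 subunits at P2 was -1.27 with shNr2f1/2, -0.35 with shCont, -1.90 with miR-17 and -2.04 with miRCont. The lowest median was that of miRCont. Several marker lists also differed between the knockdown and shCont arrays at P2. The median difference was -2.70 for the astrocyte genes, 9 of 10 being at least 2-fold lower, -2.91 for the oligodendrocyte lineage genes, with 8 of 10, and 2.49 for the cell cycle genes, all 10 being at least 2-fold higher. For the neuron genes it was -0.16. Their part in the subunit differences was not tested.

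**Figure D4:**
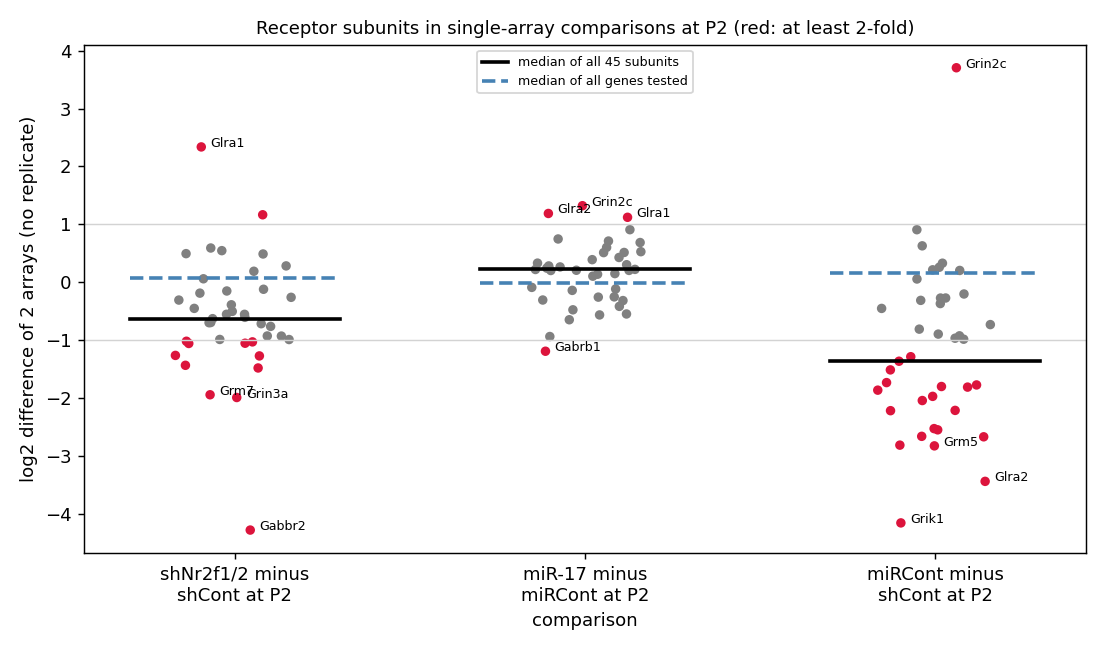
Log2 differences (vertical axis) of 40 of the 45 retained subunits, 1 point each, between 2 single arrays at P2. Red points differ by at least 2-fold as measured, dim values included, and bars give the median of all 45 subunits (solid) and of all genes (dashed). The knockdown and the miRCont comparisons share the shCont array and have medians of -0.63 and -1.37, against 0.22 for miR-17.

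Between the 2 control arrays the subunits differed more. No gene was called over both passages for miRCont against shCont in limma (0% of genes), with an unadjusted p under 0.05 in 12 of 45 subunits and in 9.58% of all genes. At P2, 24 subunits were at least 2-fold lower with miRCont (13.7% of all genes) and 1 was at least 2-fold higher (10.9%), with a median of -1.37 over the subunits and 0.17 over all genes. On the probe read, Grik1 was dim with miRCont and at least 17.9-fold lower, and Glra2 likewise at least 10.7-fold lower. The other Grik1 probe was at -2.79 with shCont and -5.06 with miRCont at P2, a smaller difference. Grin2c was the 1 that was higher, by 3.71. At P0, 10 subunits measured at least 2-fold higher with miRCont (16.6% of all genes) and 5 at least 2-fold lower (5.09%). Only 3 of the 10 were well above background on both arrays. Of the others 3 were at least 2-fold higher as a bound, 2 had a bound under 2-fold (Glra1 at 1.98-fold and Grid1 at 1.73-fold), and 2, Gabbr2 among them, were dim on both arrays. Several marker lists also differed between the control arrays at P2. With miRCont against shCont the median was -1.89 for the neuron genes, 11 of 14 being at least 2-fold lower. For the cell cycle genes it was -1.17, with 6 of 10 at least 2-fold lower. The astrocyte genes went the other way (median 1.51, 7 of 10 at least 2-fold higher), and the oligodendrocyte lineage genes had a median of 0.61. Their part in the subunit differences was not tested. The shRNA and miRNA vectors lay in different slide columns, so vector system and slide column cannot be told apart.

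The third comparison set miR-17 against miRCont. Mouse miR-17-5p, which acts in progenitor proliferation, is written with its seed (bases 2 to 8) in capitals, from RefSeq (GRCm38.p6, chr14:115043684-115043706, plus strand). The labels do not say which arm the vector yields.
miR-17-5p: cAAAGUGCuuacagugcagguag
Few subunits differed. Over both passages no gene was called in limma (0% of genes), and 1 of 45 subunits and 0.992% of all genes reached an unadjusted p under 0.05. The interaction of miR-17 with passage called no gene (0%), with 0 subunits and 1.08% of all genes at that level. It came from the fit used for the knockdown interaction, with 1 residual degree of freedom and the same limit. At P2, 3 subunits were at least 2-fold higher with miR-17 (4.16% of all genes) and 1 at least 2-fold lower (1.94%), with no test. Those were Grin2c, at 1.40 with miR-17 and 0.08 with miRCont, a difference of 1.32, Glra2, dim with miRCont and at least 2.23-fold higher, and Gabrb1, which was lower, at -1.51 with miR-17 and -0.31 with miRCont, a difference of -1.19. Glra1, the other one, was dim on both arrays and is given no fold. Some other probes differed more at P2, by -1.53 for Grm5, 2.12 for Grik2 and -1.41 for Grin2a. The probes read gave -0.26, -0.55 and 0.20. That Grm5 probe was above background on all 8 arrays, and the other 2 probes on 3 P2 arrays each. At P0, 3 subunits measured at least 2-fold higher (4.6% of all genes) and 4 at least 2-fold lower (2.16%). Of these, Grin2c was dim with miRCont and only at least 1.95-fold higher, and Grm3 was dim with miR-17 and only at least 1.73-fold lower. The largest difference was that of Gabrg1, at -2.68. The Gabrg1 difference at P2 was -0.57. The median difference at P2 was 0.22 over the subunits and -0.01 over all genes.

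The passage difference was also compared between the vector systems, in a fit with a passage by vector term that was added after the values were seen. That difference of differences was called for 10 of 45 subunits (22.2%), against 8.56% of all genes. Its median was -1.13 over the subunits and -0.04 over all genes, with 2 residual degrees of freedom. Those 2 are the differences in passage change between shNr2f1/2 and shCont and between miR-17 and miRCont. Treated and control arrays thus stood in for replicates of a vector system. The residual therefore also holds any real effect of the knockdown or miR-17 on the passage change. In 9 subunits both miRNA pairs were lower at P2 and both shRNA pairs higher, in 3 the reverse, against 5.37% and 8.19% of all genes. The NMDA subunits Grin1, Grin2a, Grin2b and Grin2d were among the 9, with Grik1, Grm4, Gabra3 and Gabrb2. The other probes of Grin2a and Grik1 did not show this pattern. The 3 were Gabrr2, Grik5 and Grm2. With this term in the fit, passage called 27 subunits and 45.7% of all genes, since the variation between vector systems then left the residual. Within the slide column of the miRNA vectors the 6 called subunits were 1.33 to 3.69 higher at P2, and within that of the shRNA vectors 1.82 to 4.82 higher. The 6 were called on these same pairs, so a rise in each column is no separate support. Passage also goes with slide row within each column.

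**Figure D5:**
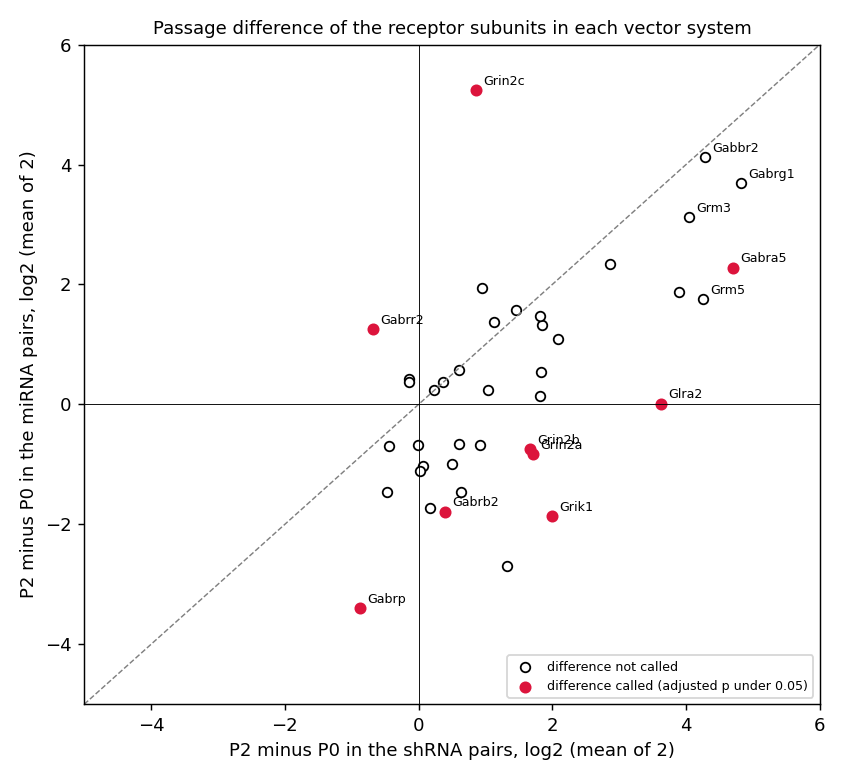
Passage difference (P2 minus P0, log2, mean of 2 pairs) of 40 of the 45 subunits in the miRNA pairs (vertical axis) and in the shRNA pairs (horizontal axis), with a dashed line of equality. Filled points are 9 subunits whose passage difference differed between the vector systems, with Grin2c far above the line and Grik1, Glra2 and Gabra5 below it.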

How the data were processed

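RNA of 8 neurosphere cultures was labelled with Cy3 and read on Agilent mouse arrays with Agilent Feature Extraction 10.7.3.1, per the submitters' processing notes. The deposited scanner files give an intensity per spot that was background-subtracted and detrended, per the file headers. In the authors' deposited value table the signal of a spot is its scanner intensity over a fixed number for that array (481 to 949), so the table is linear and uncentred, with column medians of 0.0662 to 0.124. The choice of that number is not given in the sources. Probe coordinates are mm9, per the file headers.

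Control spots and 1104 outlier spots were left out, spots of the same probe were averaged as log2 intensities, and the array's 75th percentile (log2) was taken off. The probe with the highest mean intensity stood for a gene name, and 27120 genes with that probe well above background on at least 2 arrays were tested. Upper quartiles ran from 530 to 1065 intensity units, and the small number of arrays limits precision. limma 3.58.1 in R 4.3.3 was fitted across all genes with condition and passage as factors (3 residual degrees of freedom), called at a two-sided Benjamini-Hochberg adjusted p under 0.05, and a second fit held the interactions (1 residual degree of freedom). Single arrays were compared with no test at 2-fold. A gene dim on all arrays of a group has a bound, the brighter mean against the dim value or, if higher, the lowest reliable signal on that array. The fit was tested on simulated data. All counts cover every subunit, and 5 of the 45 retained subunits and 1 gene of the partner lists are not reported here by name.

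The members and all lists were chosen with earlier results of these data known. Named with values on every array were called subunits, the member of each class with the largest passage difference, and subunits 2-fold apart at P2 with the knockdown or miR-17. From partner lists the called genes and up to 2 with the largest difference were named. Alternatives were other background correction, scaling, filters, probe choice, gene names, priors, blocks, array subsets and fold limits, and the authors' table. Gene names and promoter windows came from RefSeq tables (GRCm38.p6), matched by symbol.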

Additional observations from a re-analysis of the deposited data

Results flagged for a closer look

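In 10 subunits the difference between passages itself differed between the miRNA and the shRNA vectors, by the interaction term described above. The largest was that of Grin2c, at 4.39 (SE 0.32, adjusted p = 0.0307 in limma). Its P2 minus P0 difference was 5.29 with miR-17 and 5.20 with miRCont, against 1.12 with shNr2f1/2 and 0.58 with shCont, so it was higher at P2 in all pairs and far more so in the miRNA ones.

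For 4 subunits the vector systems moved in opposite directions on the probe read, lower at P2 in the miRNA pairs and higher in the shRNA pairs. The other probes of Grik1 and Grin2a did not show this pattern. With shCont the other Grik1 probe was at -2.49 at P0 and -2.79 at P2, and the other Grin2a probe at -4.81 and -4.86. The other Grin2b probe did show the pattern. The kainate subunit Grik1 differed by -3.86 (SE 0.35, adjusted p = 0.0307 in limma), with passage differences of -1.80 with miR-17 and -1.92 with miRCont, against 1.66 with shNr2f1/2 and 2.33 with shCont. Grin2a differed by -2.54 (SE 0.28, adjusted p = 0.0307 in limma), with -0.89 with miR-17 and -0.76 with miRCont, against 1.60 with shNr2f1/2 and 1.83 with shCont. Grin2b differed by -2.41 (SE 0.42, adjusted p = 0.046 in limma), with -0.68 with miR-17 and -0.80 with miRCont, against 1.18 with shNr2f1/2 and 2.16 with shCont. Gabrb2 differed by -2.17 (SE 0.29, adjusted p = 0.0342 in limma), with -1.62 with miR-17 and -1.95 with miRCont, against 0.32 with shNr2f1/2 and 0.45 with shCont. The rho subunit Gabrr2 went the other way, by 1.94 (SE 0.33, adjusted p = 0.0443 in limma), with 1.40 with miR-17 and 1.11 with miRCont, against -0.43 with shNr2f1/2 and -0.94 with shCont.

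Another 3 had larger rises or smaller falls in the shRNA pairs. Glra2 differed by -3.62 (SE 0.47, adjusted p = 0.0341 in limma), with 0.22 with miR-17 and -0.20 with miRCont, against 4.17 with shNr2f1/2 and 3.08 with shCont. Its P0 values were dim on all arrays but miR-17, as was its P2 value with miRCont, so these differences rest in part on signal not above background. Gabra5 differed by -2.42 (SE 0.33, adjusted p = 0.0356 in limma), with 2.08 with miR-17 and 2.47 with miRCont, against 4.93 with shNr2f1/2 and 4.47 with shCont. Gabrp differed by -2.52 (SE 0.33, adjusted p = 0.0341 in limma), with -3.60 with miR-17 and -3.19 with miRCont, against -0.66 with shNr2f1/2 and -1.10 with shCont. Of the subunits above, single values were also dim for Grin2c and Grik1 with miRCont (at P0 and at P2), for Grin2a with shCont at P0, for Gabra5 with both shRNA vectors at P0 and for Gabrp with both control vectors at P2. Each vector system lay in 1 slide column, and the 2 cannot be told apart. No subunit had a single array standing apart from the other 3 of its passage, in 90 groups of 4 tested by Dixon's ratio, a test that marks some groups by chance.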

How the results depend on the processing

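All 6 called subunits kept their direction in every alternative in which they were fitted, with differences of 0.92 to 4.82 log2 units. The alternatives reuse the arrays on which the 6 were called, so the kept direction is no separate support. The counts were less stable. Genes and subunits called for passage numbered 7013 and 13 with normexp background correction, 4299 and 13 with a trended prior, 3908 and 12 without the condition block (Gria1 then missing the threshold), 13740 and 30 on the miRNA arrays alone, and 0 and 0 on the control conditions or the shRNA arrays alone, where 5724 and 5008 genes had an unadjusted p under 0.05 in limma. The filter on all 8 arrays gave 3653 genes, and quantile normalization 12 subunits. The term for passage by vector system, chosen after seeing the data, gave 12392 and 27. Leaving out 1 array, which removes its pair, gave 0 to 4783 genes and 0 to 12 subunits. Under the filter on all 8 arrays 2 genes were called between the control vectors. No replicate block was possible because each group held 1 array and the labels number no replicates, while condition already served as the block.

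Subunits past the fold limit between single arrays moved with the setting. With normexp they numbered 0 (knockdown at P0), 9 (knockdown at P2), 1 (miR-17 at P0), 1 (miR-17 at P2) and 5 (control vectors at P0). With quantile normalization the knockdown at P0 had 4. With the filter on all 8 arrays they were 0 for the knockdown and 4 for miR-17 at P0, 1 for miR-17 at P2 and 7 for the control vectors at P0. A 1.5-fold limit gave 10, 27, 20, 12 and 26 in the order of the normexp counts, and a 3-fold limit 0, 4, 2, 0 and 6.

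Some uncalled subunits changed sign under some settings, and the cause was not tested. On the shRNA arrays alone the passage difference was 0.50 for Gabra3, 0.39 for Gabrb2, -0.69 for Gabrr2, 1.32 for Glra1, 0.072 for Gria2, 0.025 for Gria3, -0.14 for Grik5, 0.61 for Grin1, 0.64 for Grin2d, -0.15 for Grm2 and 0.17 for Grm8. On the miRNA arrays alone it was -1.86 for Grik1, -0.83 for Grin2a, -0.74 for Grin2b and -0.67 for Grm4. The mean of a gene's probes gave 0.20 for Gria2, -0.41 for Grik1, -0.070 for Grin2a and -0.034 for Grm4, and -0.23 for Gabbr2 between the control vectors at P0. Quantile normalization gave 0.16 for Gabrd, 0.26 for Grin1 and 0.0038 for Grin2d. For Grin1 normexp gave 0.0083 and the control conditions 0.048, and for Glra1 the miR-17 difference at P2 was -0.055 with normexp. Leaving out 1 array gave ranges of -0.52 to 0.18 for Gabra3, -0.090 to 0.69 for Gabrr2, -1.80 to 0.13 for Glra1, -0.69 to 0.73 for Grik1, -0.0094 to 0.24 for Grik5, -0.38 to 0.28 for Grin1, -0.019 to 0.89 for Grin2a, -0.10 to 0.89 for Grin2b, -0.84 to 0.097 for Grin2d, -0.023 to 0.22 for Grm2 and -0.28 to 0.49 for Grm4. The calls depended on which pairs were fitted, and 1 array per group leaves single differences without a test. Signal over background is a further limit, since a subunit dim on some arrays has a difference that depends on the background correction.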
